A study of Mus musculus with 48 samples.

Results

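The genes described here encode immune checkpoint and costimulatory molecules of tumour and myeloid cells: Cd274, Pdcd1lg2, Cd80, Cd86, Cd47, Sirpa, Havcr2, Lgals9 and Pvr. These 9 genes were taken by their symbols from a table of 24054 genes, and all 9 passed the filter on low counts in every fit. Of the 9, 7 encode ligands, while Sirpa and Havcr2 encode receptors carried by myeloid cells. The study profiled RNA from 8 mouse mammary tumour lines in culture and from neutrophils and macrophages sorted out of 4 kinds of mammary tumour, with 3 libraries in each of 16 groups. The macrophage and neutrophil groups came from 2208L, T11, AT3 and E0771 tumours, and the line groups were 2208L, T11, 4T1, 67NR, PyMT-N, PyMT-M, AT3 and E0771.

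Strain was labelled BALB/C for 2208L, T11, 4T1 and 67NR and C57BL/6 for PyMT-N, PyMT-M, AT3 and E0771, except that replicate 1 of the E0771 macrophages and of the E0771 neutrophils was labelled BALB/C. E0771 was grown in an RPMI medium with HEPES and the other 7 lines in high-glucose DMEM. Beyond the line names, no drug, transgene or other treatment was named for any of these groups. The labels gave no age for the animals. Passage was labelled 7 for PyMT-M, 14 for PyMT-N and E0771, 15 for AT3 and 19 for 67NR. It was 15 to 20 for 2208L, T11 and 4T1, and passage and line cannot be told apart. The authors' column names mark 2208L, 4T1, PyMT-N and AT3 as Epi and T11, 67NR, PyMT-M and E0771 as Mes. The column taken as PyMT-N was matched by elimination, since its own name reads PyMTE. Neutrophils had been sorted as live CD45+ CD11b+ cells that were Ly6G+ with medium to low Ly6C, and macrophages as live CD45+ CD11b+ cells without Ly6G or Ly6C and with F4/80. The labels did not say that libraries came from separate animals or cultures, so the p-values measure only the spread between these libraries, which may be technical.

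By way of background, T cells need a signal through their antigen receptor and a second signal through CD28, and ligands on the cells they meet can add to that second signal or oppose it. PD-L1 (Cd274) and PD-L2 (Pdcd1lg2) bind PD-1 and restrain T cells, whereas B7-1 (Cd80) and B7-2 (Cd86) engage CD28 to costimulate and CTLA-4 to restrain. CD47 on a target cell binds SIRPα (Sirpa) on a phagocyte and holds back engulfment, galectin-9 (Lgals9) is a ligand of TIM-3 (Havcr2), and CD155 (Pvr) binds TIGIT, CD96 and CD226 on T and NK cells. Type II and type I interferons are well known inducers of PD-L1.

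Depth limited the sorted cells more than the lines. A single ribosomal RNA gene, Rn45s, took 55.0 to 76.2% of the counts in macrophages, 26.8 to 70.3% in neutrophils and 3.88 to 14.9% in lines. Outside Rn45s the totals were 683150 to 1755895 counts in macrophages, 470712 to 1185233 in neutrophils and 1893268 to 5749088 in lines. Levels below are CPM, the counts scaled to a common total outside Rn45s, whereas log2 differences come from edgeR's quasi-likelihood test with TMM scaling over all genes, so a log2 difference need not equal a ratio of CPM. A gene is said to have risen, fallen or changed where its Benjamini-Hochberg adjusted p over all genes tested was below 0.05. Odorant and vomeronasal receptor genes, which these cells are not known to need, gave a background of 0.162 to 0.605 CPM per kilobase in macrophages, 0.720 to 3.52 in neutrophils and 0.115 to 0.553 in lines. It was highest in T11 neutrophils, at 2.42 to 3.52. The 12 macrophage markers summed to 7403 to 26345 CPM in macrophages and 944 to 7801 CPM in neutrophils. The 12 neutrophil markers summed to 267 to 7981 CPM in macrophages and 3321 to 26888 CPM in neutrophils. T11 macrophages, at 3187 to 7981 CPM, overlapped T11 neutrophils, at 3321 to 8374 CPM, in that sum. Of these markers S100a8 averaged 1.42 to 7.55 CPM in the macrophage groups and 525 to 6312 CPM in the neutrophil groups. In bulk samples such as these, fewer cells of a type and less RNA per cell cannot be told apart.

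Per kilobase of exon, the order of the members differed between the cell types. In macrophages Sirpa had the highest median at 220.0 CPM per kilobase and Lgals9 came next at 183, while Pdcd1lg2 was lowest at 4.56. In neutrophils Cd274 stood at a median of 116 CPM per kilobase, level with Lgals9 at 116, and Pvr was lowest at 6.60. In the lines Lgals9 led with a median of 28.7 CPM per kilobase, followed by Cd47 at 13.9 and Pvr at 7.54, and the other 6 members lay between 0.634 and 2.11. All 24 line libraries exceeded 10 times the receptor background for Cd47 and Lgals9, but none did for Cd80 or Cd86, and 4 did for Cd274.

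**Figure D1:**
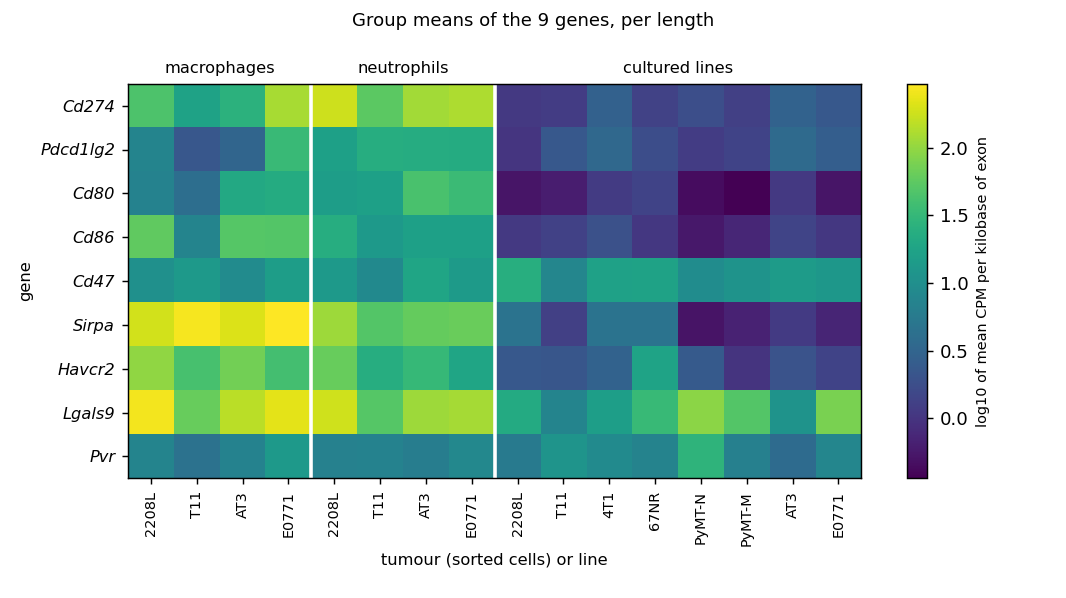
Mean level of the 9 genes on a log10 scale of CPM per kilobase of exon, with genes down the side and the 16 groups of 3 libraries along the top (macrophages, then neutrophils, then lines). Over the libraries of a cell type the highest medians are those of Sirpa in macrophages (220.0 CPM per kilobase), Cd274 and Lgals9 in neutrophils (116 each) and Lgals9 in lines (28.7), but the leading gene varies by group: Lgals9 is above Sirpa in 2208L macrophages (266 and 188), and Cd47 or Pvr is above Lgals9 in the 2208L, T11, 4T1 and AT3 lines.

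Cd274 and Pdcd1lg2 encode the ligands of PD-1 and lie beside each other on chromosome 19 of mm10. Cd274 spans chr19:29367455-29388095 on the plus strand and Pdcd1lg2 spans chr19:29410919-29471161 on the same strand, with their starts 43464 bases apart. An antisense gene overlaps each of them, AC119228.1 at Cd274 and A930007I19Rik at Pdcd1lg2, and since the strand setting of the counting was not stated, reads of the pairs cannot be told apart. Both genes are known to respond to interferon, so the 250 bases before each RefSeq start (GRCm38.p6) are shown, with matches to the interferon regulatory factor core AANNGAAA or its other strand TTTCNNTT in capitals. Cd274 has 1 match whose first base lies 175 bases before the start, in chr19:29367188-29367437, and Pdcd1lg2 has 1 match 35 bases before the start, in chr19:29410669-29410918, both on the plus strand.
Cd274: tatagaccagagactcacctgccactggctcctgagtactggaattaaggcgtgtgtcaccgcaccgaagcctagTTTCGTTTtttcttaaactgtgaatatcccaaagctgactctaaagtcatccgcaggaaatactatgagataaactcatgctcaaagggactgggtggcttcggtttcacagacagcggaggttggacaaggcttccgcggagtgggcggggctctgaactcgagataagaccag
Pdcd1lg2: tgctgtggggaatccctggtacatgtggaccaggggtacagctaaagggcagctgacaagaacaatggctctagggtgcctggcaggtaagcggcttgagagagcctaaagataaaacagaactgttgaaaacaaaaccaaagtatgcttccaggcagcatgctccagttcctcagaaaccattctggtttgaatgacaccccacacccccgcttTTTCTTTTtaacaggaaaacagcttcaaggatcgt
The core occurs in 21.3% of 32851 RefSeq windows of this length, so such a match is common, and it describes letters and not a bound site. The table of promoters held 6 of the 9 members (Cd274, Pdcd1lg2, Cd80, Cd47, Havcr2 and Lgals9). The STAT motif TTCNNNGAA, present in 7.02% of windows, occurred in none of them.

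Cd274 was far higher in both sorted cell types than in the lines. Its level was 172, 172 and 157 CPM in 2208L macrophages and 558, 608 and 781 CPM in 2208L neutrophils. T11 macrophages had 39.6, 56.4 and 89.6 CPM and T11 neutrophils 244, 153 and 192 CPM. In both of these tumours every neutrophil library lay above every macrophage library. AT3 tumours gave 80.7, 135 and 75.6 CPM in macrophages and 149, 717 and 401 CPM in neutrophils, with the widest spread among neutrophils of one tumour. E0771 tumours gave 451, 470 and 424 CPM in macrophages and 390, 587 and 440 CPM in neutrophils, and there the 2 cell types overlapped. Across the 24 line libraries Cd274 lay between 2.98 and 12.7 CPM, with a median of 5.95.

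Among macrophages Cd274 was highest in E0771 tumours. It exceeded its next neighbour in order, the 2208L macrophages, by 1.23 ± 0.28 on the log2 scale (SE, edgeR adjusted p = 0.0026), and AT3 exceeded T11 by 0.86 (edgeR adjusted p = 0.0413), while 2208L and AT3 were not told apart. Among neutrophils the order was 2208L, E0771, AT3 and T11, and only the step of AT3 over T11 passed (log2 difference 1.76 ± 0.47, edgeR adjusted p = 0.00919). In the lines the steps between neighbours were small: PyMT-N exceeded 67NR by 0.85 on the log2 scale (edgeR adjusted p = 0.00291), and the other 6 neighbouring pairs were not told apart.

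Pdcd1lg2 was less abundant than Cd274 per kilobase in each of the sorted groups, and in macrophages it rested on few reads. The E0771 macrophages had 81.7, 74.7 and 43.6 CPM and the E0771 neutrophils 42.9, 41.8 and 48.9 CPM. In 2208L tumours the macrophages had 1.49, 22.1 and 20.4 CPM, from 2, 26 and 16 counts, and the neutrophils 43.3, 20.2 and 33.3 CPM. For T11 the values were 5.23, 6.83 and 0.905 CPM in macrophages, from 7, 12 and 1 counts, and 43.6, 48.9 and 45.4 CPM in neutrophils. The E0771 macrophages thus stood above the macrophages of these 2 tumours without overlap. AT3 tumours gave 11.0, 4.04 and 3.70 CPM in macrophages and 63.2, 45.3 and 28.6 CPM in neutrophils. The neutrophil groups were not told apart (edgeR adjusted p = 0.568 over the 4 tumours), and 8 of the 12 neutrophil libraries exceeded 10 times the receptor background. The ratio of Cd274 to Pdcd1lg2 per kilobase had medians of 4.23, 4.47, 11.0 and 3.41 in 2208L, T11, AT3 and E0771 macrophages, and of 12.7, 2.29, 7.61 and 4.91 in the neutrophils of the same tumours. Pdcd1lg2 lay between 1.29 and 9.69 CPM in the lines, and no neighbouring pair of lines was told apart.

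**Figure D2:**
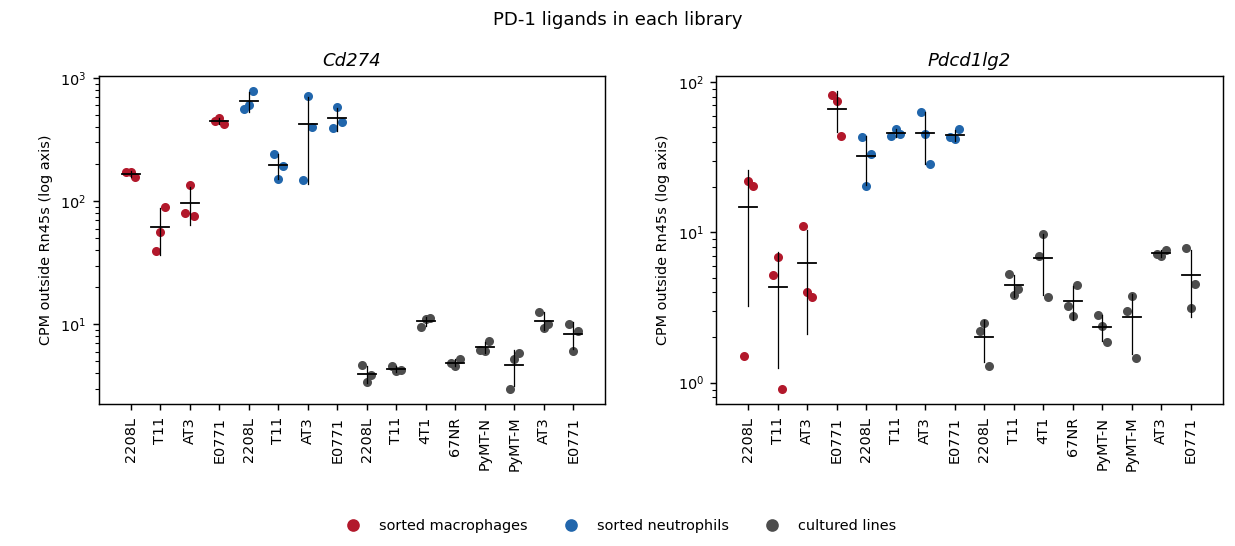
Level of Cd274 and Pdcd1lg2 in every library, in CPM outside Rn45s on a log axis, for macrophages, neutrophils and lines. Points are libraries, the line is the mean of 3 and the bar its SD. Cd274 lies between 39.6 and 781 CPM in the sorted cells and between 2.98 and 12.7 CPM in the lines, and Pdcd1lg2 in macrophages is highest in E0771 tumours.

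Cd80 and Cd86, the B7 ligands, are both on chromosome 16, at chr16:38455561-38496335 on the plus strand and chr16:36603869-36666081 on the minus strand. They were distributed differently between the sorted cells. Cd86 was 248, 228 and 160 CPM in 2208L macrophages and 87.8, 78.5 and 90.6 CPM in 2208L neutrophils. AT3 tumours gave 152, 191 and 219 CPM in macrophages and 50.6, 83.5 and 45.7 CPM in neutrophils. E0771 tumours gave 142, 155 and 245 CPM in macrophages and 62.7, 53.8 and 61.6 CPM in neutrophils. In these 3 tumours every macrophage library exceeded every neutrophil library. The T11 macrophages stood apart, with 15.7, 34.7 and 31.7 CPM, below all 3 T11 neutrophil libraries at 51.7, 40.8 and 57.8 CPM. E0771, the next group in order, exceeded T11 among macrophages by 2.44 ± 0.33 on the log2 scale (edgeR adjusted p = 1.0e-06), while the macrophages of the other 3 tumours were not told apart from their neighbours in order. Cd86 in the T11 neutrophils was 3.16 to 5.94 times the receptor background per kilobase, and 6 of the 12 neutrophil libraries exceeded 10 times.

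Cd80 was lowest in the macrophages of the BALB/C tumours. It was 11.2, 24.6 and 42.1 CPM in 2208L macrophages and 62.2, 60.7 and 45.3 CPM in 2208L neutrophils. T11 tumours gave 10.5, 10.8 and 23.5 CPM in macrophages and 80.7, 34.7 and 66.0 CPM in neutrophils. The 2 cell types did not overlap in either of these tumours, but the difference was not called in either with TMM scaling over all genes. Macrophages minus neutrophils was -0.93 on the log2 scale in 2208L (edgeR adjusted p = 0.168) and -0.80 in T11 (0.101). AT3 tumours gave 56.9, 86.8 and 88.9 CPM in macrophages and 91.7, 236 and 154 CPM in neutrophils, and E0771 tumours gave 47.6, 89.3 and 112 CPM in macrophages and 102, 149 and 138 CPM in neutrophils. AT3 macrophages exceeded 2208L macrophages, the next in order, by 1.96 ± 0.40 on the log2 scale (edgeR adjusted p = 0.000981). Apart from the 2 E0771 libraries labelled BALB/C, strain label and tumour go together and cannot be told apart. The ratio of Cd86 to Cd80 per kilobase had medians of 9.38, 1.52, 2.49 and 2.22 in 2208L, T11, AT3 and E0771 macrophages, and of 1.43, 0.885, 0.357 and 0.451 in the neutrophils of the same tumours. In the lines Cd80 lay between 0.589 and 5.74 CPM and Cd86 between 0.529 and 9.69 CPM.

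**Figure D3:**
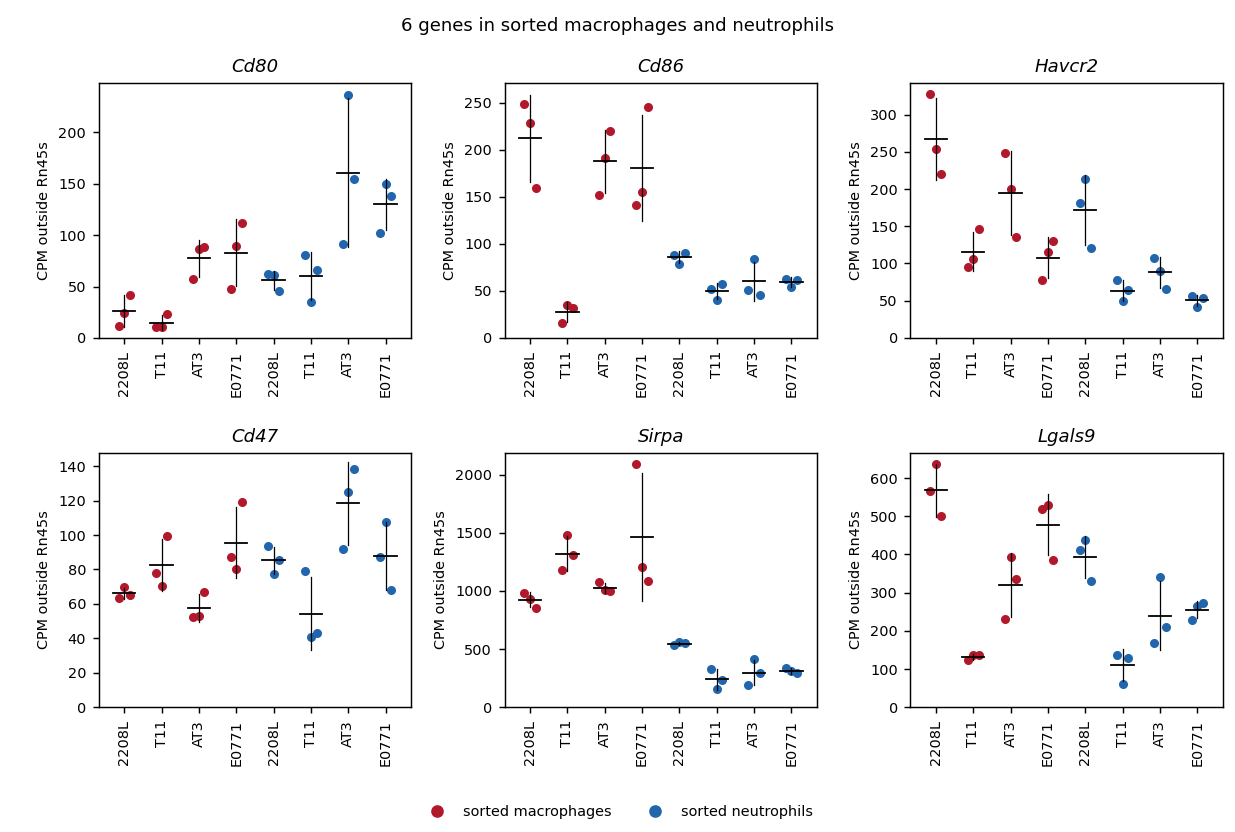
Level of Cd80, Cd86, Havcr2, Cd47, Sirpa and Lgals9 in the sorted cells, in CPM outside Rn45s on linear axes from 0, with macrophages left of neutrophils for each tumour. Points are libraries and the line and bar are the mean and SD of 3. Sirpa separates the cell types in every tumour, with macrophage libraries at 857 to 2093 CPM and neutrophil libraries at 155 to 559 CPM, and Cd86 is low in T11 macrophages.

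Sirpa, the receptor of the CD47 pair, lies at chr2:129592835-129632228, and its reads may be shared in part with the related genes Sirpb1a and Sirpb1b. Its macrophage libraries were all above its neutrophil libraries. It was 985, 932 and 857 CPM in 2208L macrophages and 532, 559 and 551 CPM in 2208L neutrophils, and 1178, 1479 and 1307 CPM in T11 macrophages and 333, 155 and 235 CPM in T11 neutrophils. AT3 tumours gave 1077, 1011 and 998 CPM in macrophages and 191, 413 and 290 CPM in neutrophils, and E0771 tumours 2093, 1205 and 1084 CPM in macrophages and 335, 308 and 291 CPM in neutrophils. The 4 macrophage groups were not told apart (edgeR adjusted p = 0.195), whereas 2208L neutrophils exceeded E0771 neutrophils by 1.23 ± 0.40 on the log2 scale (edgeR adjusted p = 0.036). The lines fell into 2 ranges. Sirpa averaged 22.6 CPM in 2208L, 22.7 in 4T1 and 22.7 in 67NR, all labelled BALB/C, and 6.33 in T11, 2.53 in PyMT-N, 3.32 in PyMT-M, 5.56 in AT3 and 3.54 in E0771. The step of 2208L over T11 was the only one of 7 between neighbours that passed.

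Cd47, the ligand, at chr16:49800533-49915010, ranged from 40.8 to 159 CPM over all 48 libraries. Its macrophage libraries held 63.5, 69.6 and 65.1 CPM in 2208L tumours, 77.8, 70.6 and 99.5 in T11, 52.6, 53.1 and 66.7 in AT3, and 87.1, 80.5 and 119 in E0771. Its neutrophil libraries held 93.4, 77.6 and 85.2 CPM in 2208L, 79.1, 40.8 and 43.3 in T11, 91.7, 125 and 139 in AT3, and 87.5, 108 and 68.0 in E0771. Cd47 in the T11 neutrophils averaged 3.21 times the receptor background per kilobase, and 5 of the 12 neutrophil libraries exceeded 10 times. The part of that background in the Cd47 differences that involve T11 neutrophils was not tested. The macrophage groups were not told apart (edgeR adjusted p = 0.469). Among the lines 2208L was highest with 159, 144 and 151 CPM and T11 lowest with 50.4, 50.4 and 47.5 CPM, and the other 6 lines lay between 54.8 and 113 CPM. Of the 7 steps between neighbouring lines, 2208L over 67NR (log2 difference 0.68, edgeR adjusted p = 1.46e-09) and PyMT-N over T11 (0.64, edgeR adjusted p = 2.12e-06) passed. The ratio of Sirpa to Cd47 per kilobase had group medians of 17.1 to 24.3 in macrophages, 2.67 to 8.27 in neutrophils and 0.0571 to 0.271 in lines, so the receptor exceeded its ligand in the sorted cells and the ligand its receptor in the lines.

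Havcr2 encodes TIM-3, a receptor that restrains T cells and is also carried by macrophages and dendritic cells, and it lies at chr11:46454935-46481255. In 2208L tumours it was 328, 254 and 221 CPM in macrophages and 181, 213 and 121 CPM in neutrophils. T11 tumours gave 95.7, 106 and 146 CPM in macrophages and 77.5, 48.9 and 63.9 CPM in neutrophils. AT3 tumours gave 249, 200 and 136 CPM in macrophages and 108, 90.6 and 65.7 CPM in neutrophils. In each of these 3 tumours all macrophage libraries exceeded all neutrophil libraries. The same held in E0771 tumours, with 77.6, 116 and 131 CPM in macrophages and 56.1, 41.8 and 53.1 CPM in neutrophils. Among neutrophils 2208L exceeded AT3 by 1.13 on the log2 scale (edgeR adjusted p = 0.0166) and AT3 exceeded T11 by 0.95 (edgeR adjusted p = 0.044). Of the lines, 67NR had 43.9, 49.2 and 50.6 CPM, above every library of the other 7 lines; the next, 4T1, had 4.99, 10.6 and 8.95 CPM.

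Lgals9, a galectin that binds sugars on TIM-3 and on other surface proteins, lies at chr11:78962974-78984946 on the minus strand. It is known as an interferon-induced gene, and its window, chr11:78984925-78985174, holds 2 matches to the same core, with first bases 151 and 55 bases before the start. The sequence is printed on the minus strand with both matches in capitals.
Lgals9: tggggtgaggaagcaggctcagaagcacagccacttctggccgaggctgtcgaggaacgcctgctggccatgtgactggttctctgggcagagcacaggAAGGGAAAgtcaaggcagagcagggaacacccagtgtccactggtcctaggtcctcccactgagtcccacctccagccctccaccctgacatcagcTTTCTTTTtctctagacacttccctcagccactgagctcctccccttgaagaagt
One of them overlaps a match to a longer motif, GAAA repeated after any 2 bases or the same on the other strand, which 2.98% of windows hold. None of the other 5 members with a window holds the longer motif.

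Lgals9 separated the lines most finely. It was 52.4, 46.1 and 41.7 CPM in 2208L, 15.6, 17.3 and 14.8 in T11, 32.9, 38.3 and 29.5 in 4T1, and 70.1, 71.0 and 70.6 in 67NR. Among the C57BL/6 lines, PyMT-N had 192, 208 and 200 CPM, PyMT-M 86.6, 105 and 122, AT3 28.5, 23.3 and 21.5, and E0771 153, 177 and 162. All 7 steps between neighbours in this order passed, from PyMT-N at the top through E0771, PyMT-M, 67NR, 2208L, 4T1 and AT3 to T11. In the sorted cells AT3 macrophages had 230, 394 and 336 CPM and AT3 neutrophils 168, 342 and 210 CPM. The 2208L tumours had 565, 638 and 500 CPM in macrophages and 412, 438 and 332 CPM in neutrophils, and E0771 tumours 519, 528 and 387 CPM in macrophages and 230, 266 and 272 CPM in neutrophils. T11 tumours were lowest in both cell types, with 123, 138 and 136 CPM in macrophages and 137, 61.2 and 130 CPM in neutrophils. AT3, the next in order, exceeded T11 by 1.46 on the log2 scale in macrophages (edgeR adjusted p = 4.74e-05) and by 1.71 in neutrophils (edgeR adjusted p = 0.00307).

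Pvr, at chr7:19903578-19921160, overlaps the pseudogene Gm16184 and the antisense gene Gm16251. It had 63.5, 54.3 and 19.2 CPM in 2208L macrophages, 23.9, 30.8 and 29 in T11, 28, 41.0 and 61.5 in AT3, and 70.8, 79.0 and 94.2 in E0771. Neutrophil libraries lay between 33.2 and 64.2 CPM, and 1 of the 12 exceeded 10 times the receptor background per kilobase, with the 12 libraries at 1.89 to 11.7 times that background. Neither the macrophage groups (edgeR adjusted p = 0.0618) nor the neutrophil groups (edgeR adjusted p = 0.406) were told apart. Among the lines PyMT-N was far above the rest, with 179, 176 and 167 CPM. T11, the next, had 62.1, 68.0 and 80.8 CPM, lower than PyMT-N by 1.70 on the log2 scale (edgeR adjusted p = 1.83e-25), and AT3 was lowest with 20.8, 19.8 and 27.6 CPM. The 4T1 line had 55.3, 53.7 and 55.2 CPM, E0771 46.5, 51.2 and 45.9, 67NR 45.5, 46.4 and 41.9, PyMT-M 39.6, 37.8 and 45.1, and 2208L 32, 37.4 and 35.0. Of these 5 neighbouring lines none was told apart from the next, whereas T11 over 4T1 and 2208L over AT3 passed.

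**Figure D4:**
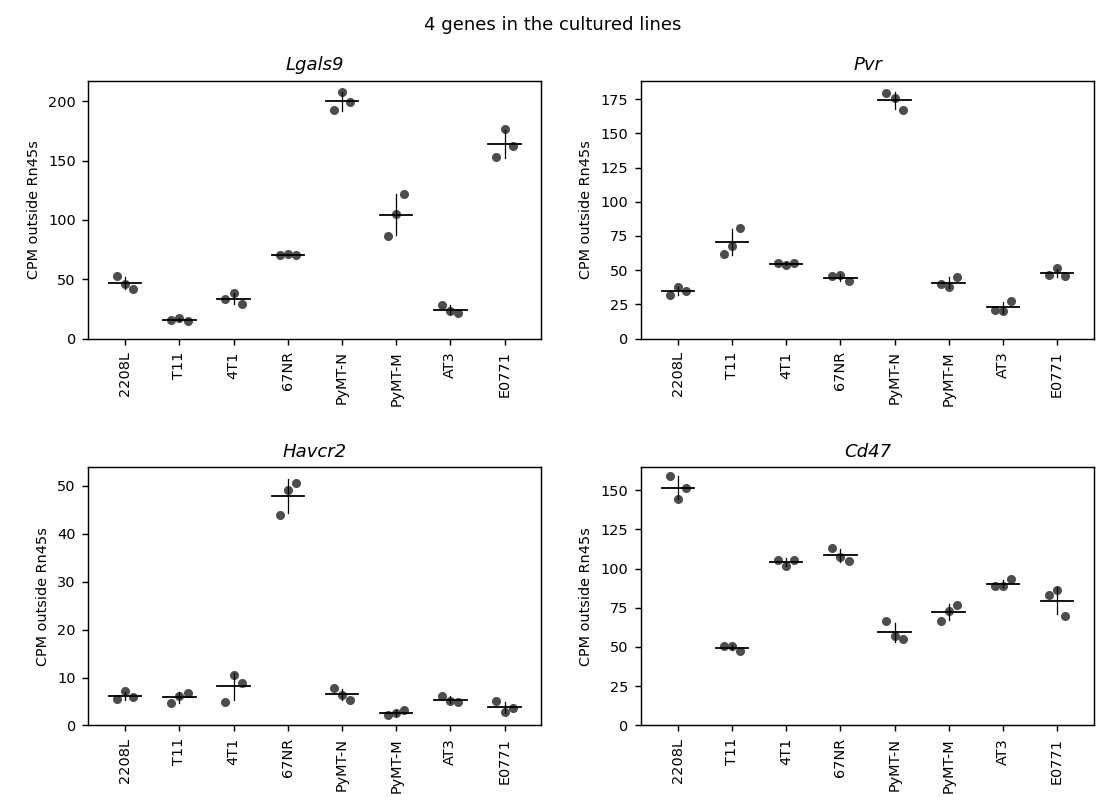
Level of Lgals9, Pvr, Havcr2 and Cd47 in the 8 cultured lines, in CPM outside Rn45s on linear axes from 0. Points are libraries and the line and bar are the mean and SD of 3. PyMT-N holds the highest Lgals9, at 192 to 208 CPM, and the highest Pvr, at 167 to 179 CPM, while 67NR alone exceeds 40 CPM for Havcr2.

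The lines were then compared in same-strain pairs. Of the 9 genes, 8 differed among the 8 lines, the exception being Cd86 (edgeR adjusted p = 0.101), where 89.1% of all genes tested differed. In 2208L against T11, 5 members changed, where 41.4% of all genes did. Cd47 rose by 1.74 ± 0.11 on the log2 scale, 3.34-fold (edgeR adjusted p = 2.62e-25), Sirpa by 1.97 ± 0.23 (3.67e-12) and Lgals9 by 1.67 ± 0.15 (8.92e-17), while Pvr fell by 0.88 ± 0.13 (6.9e-09) and Pdcd1lg2 fell by 1.03 ± 0.42 (0.0403). The Pdcd1lg2 call did not hold without the filter on low counts (edgeR adjusted p = 0.0557) or by DESeq2 (adjusted p = 0.0636). It was also lost without each T11 library in turn (edgeR adjusted p = 0.0526 to 0.17) and without replicate 1 (0.0627) or 3 (0.174) of 2208L. Its counts per library were 5 to 10 in 2208L and 8 to 15 in T11. In 4T1 against 67NR, 3 members changed, where 47.8% of all genes did (49.3% of these calls higher in 4T1, and 60.4% with TMM factors taken from well-expressed genes only): Havcr2 was lower in 4T1 by 6.46-fold (log2 difference -2.69 ± 0.19, edgeR adjusted p = 3.0e-22), Lgals9 fell by 1.25 ± 0.13 and Cd274 rose by 0.94 ± 0.27 (0.00211).

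In PyMT-N against PyMT-M, 4 members rose and none fell, where 44.6% of all genes changed, 24.5% higher and 20.1% lower. Of all calls 54.9% were higher, and 44.8% with factors from well-expressed genes. Pvr was higher in PyMT-N by 5.26-fold (edgeR adjusted p = 1.58e-33), Lgals9 by 1.25 ± 0.10 and Havcr2 by 1.61 ± 0.31 on the log2 scale (6.82e-06), and Cd274 by 0.80 ± 0.28 (0.0137). The Cd274 call was lost with library totals alone as scaling (log2 difference 0.50, edgeR adjusted p = 0.165), without replicate 1 of PyMT-M (0.60, 0.125) and without replicate 3 of PyMT-N (0.72, 0.06). The labelled passage was 14 for PyMT-N and 7 for PyMT-M. In AT3 against E0771, 3 members changed, where 45.7% of all genes did (44.6% of these calls higher in AT3, and 64.4% with factors from well-expressed genes). Lgals9 was 7.40-fold lower in AT3 (log2 difference -2.89 ± 0.11, edgeR adjusted p = 1.11e-38), Pvr fell by 1.20 ± 0.13 and Cd80 rose by 1.11 ± 0.40 (0.018). Cd80 rested on few reads, and its call was lost without replicate 2 of the E0771 line (log2 difference 0.62, edgeR adjusted p = 0.258). These lines were grown in different media, and medium and line cannot be told apart.

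Averaged over the 4 pairs, Epi over Mes by the authors' column names, 4 members changed, where 47.8% of all genes did. The tumour epithelium markers summed to 75.8 to 102 CPM in AT3 and 168 to 198 CPM in E0771. They summed to 2748 to 4373 CPM in 2208L, 4T1 and PyMT-N, so AT3 was marked Epi without such levels. Cd47 rose by 0.40 ± 0.05 on the log2 scale (edgeR adjusted p = 2.72e-10), Sirpa by 0.55 ± 0.14 (0.000548) and Cd274 by 0.51 ± 0.14 (0.00132), and Lgals9 fell by 0.30 ± 0.06 (3.63e-05). The pairs did not move together: Lgals9 was higher in the Epi line of 2 pairs and lower in that of the other 2, and Cd47 and Sirpa changed in 2208L against T11 but in no other pair.

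Within one cell type, 2208L tumours were set against T11 tumours, and AT3 tumours against E0771 tumours. In neutrophils 7 of the 9 members differed among the 4 tumours, where 31.4% of all genes did, and Pdcd1lg2 and Pvr were the exceptions. Without the T11 groups 2 of these calls were left, and those of Cd274 (edgeR adjusted p = 0.346), Cd86 (0.109), Cd47 (0.196), Sirpa (0.0544) and Lgals9 (0.109) were lost, while with factors from well-expressed genes that of Cd86 was lost (0.404), as it was with library totals alone (0.124). In 2208L against T11 neutrophils 6 members rose and none fell, where 31.9% of all genes changed, 19.4% higher and 12.5% lower. Lgals9 was 5.56-fold higher in 2208L neutrophils (log2 difference 2.48 ± 0.41, edgeR adjusted p = 3.14e-05) and Cd274 5.09-fold (2.35 ± 0.48, 0.00039), and Havcr2 (2.08 ± 0.32), Sirpa (1.81 ± 0.40), Cd86 (1.40 ± 0.32) and Cd47 (1.25 ± 0.33) rose too. The median over the 9 members was 1.40 and that over all genes tested -0.21. When TMM factors were taken from well-expressed genes only, the median of all genes moved to -1.13, the share of all calls that were higher in 2208L was 10.9%, against 60.9% before, and Cd86 (0.50, edgeR adjusted p = 0.139) and Cd47 (0.36, 0.263) were no longer called. The receptor background was 0.720 to 1.13 CPM per kilobase in these 2208L neutrophils and 2.42 to 3.52 in the T11 neutrophils, and the macrophage markers summed to 5677 to 7801 CPM in 2208L neutrophils and 944 to 1683 CPM in T11 neutrophils. Tumour epithelium markers summed to 494 to 602 CPM in 2208L neutrophils and 208 to 229 CPM in T11 neutrophils. The part of these in the result was not tested.

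No member was called in AT3 against E0771 neutrophils, where 4.19% of all genes were (56.6% of these calls higher in AT3, and 35.6% with factors from well-expressed genes). DESeq2 also called 0, and 2 members had an unadjusted p below 0.05 by edgeR, Cd47 and Havcr2, the closest being Havcr2 (edgeR adjusted p = 0.053). Without replicate 1 of the AT3 neutrophils 3 members were called, while the calls over all genes went from 761 to 2634.

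In macrophages 6 members differed among the tumours, where 35.5% of all genes did. In 2208L against T11 macrophages 4 rose and none fell, where 15.7% of all genes changed, 7.77% higher and 7.9% lower. Of all calls 49.6% were higher in 2208L, and 67.7% with factors from well-expressed genes. Cd86 was 7.21-fold higher in 2208L macrophages (log2 difference 2.85 ± 0.33, edgeR adjusted p = 6.25e-08), Lgals9 rose by 1.99 ± 0.25 on the log2 scale (4.41e-07), Cd274 by 1.34 ± 0.29 (0.000953) and Havcr2 by 1.13 ± 0.28 (0.00451). The median over the 9 members was 1.13 and that over all genes tested 0.06. The Havcr2 call was lost without replicate 1 of the T11 macrophages (edgeR adjusted p = 0.0587) or without replicate 1 of the 2208L macrophages (0.066). Lgals9, Cd274, Cd86 and Havcr2 were called higher in 2208L than in T11 in both sorted cell types. The share of all genes called higher in both was not counted, beside 19.4% in neutrophils and 7.77% in macrophages. The Cd86 call in neutrophils was lost with factors from well-expressed genes (edgeR adjusted p = 0.139). The neutrophil markers summed to 314 to 369 CPM in 2208L macrophages and 3187 to 7981 CPM in T11 macrophages, where Mmp9 averaged 5975 CPM. The macrophage markers summed to 18609 to 26345 CPM in 2208L macrophages and 7403 to 9461 CPM in T11 macrophages. Tumour epithelium markers summed to 345 to 552 CPM in 2208L macrophages and 20.8 to 30.8 CPM in T11 macrophages, and dendritic cell markers to 72.5 to 216 CPM in 2208L and 40.4 to 56.1 CPM in T11. The part of these in the result was not tested.

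In AT3 against E0771 macrophages 3 members changed, where 18.4% of all genes did (52.7% of these calls higher in AT3, and 14.5% with factors from well-expressed genes). Pdcd1lg2 was 7.65-fold lower in AT3 macrophages (log2 difference -2.93 ± 0.62, edgeR adjusted p = 0.00135) and Cd274 3.28-fold lower (-1.71 ± 0.28, 5.93e-05), whereas Havcr2 rose by 1.31 ± 0.29 (0.00192). The median over the 9 members was -0.09 and that over all genes tested -0.06. Under the factors from well-expressed genes these 3 values were -3.46, -2.24 and 0.81. Neither PD-1 ligand was called between the neutrophils of the same tumours, and whether this pair differed between the cell types was not tested apart from the test over all 4 tumours given below. The 9 dendritic cell markers summed to 49.2 to 72.6 CPM in AT3 macrophages and 320 to 754 CPM in E0771 macrophages, with Ccr7 at a mean of 4.45 CPM in AT3 and 270 ± 139 CPM (SD, n = 3) in E0771. T and NK cell markers summed to 22.9 to 36.3 CPM in AT3 macrophages and 253 to 375 CPM in E0771 macrophages. The part of these cells in the result was not tested.

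Macrophages were compared with neutrophils of the same tumours. Averaged over the 4 tumours all 9 members changed, 6 higher and 3 lower in macrophages, where 76.0% of all genes changed (30.3% higher and 45.7% lower), and the median over members was 0.85 on the log2 scale against -0.54 over all genes tested. Sirpa was 5.74-fold higher in macrophages (2.52 ± 0.18, edgeR adjusted p = 7.01e-17), Havcr2 rose by 1.69 ± 0.16, Cd86 by 1.66 ± 0.17 and Lgals9 by 1.24 ± 0.17. Cd274 fell by 0.75 ± 0.19 (edgeR adjusted p = 0.000555), Pdcd1lg2 fell by 0.95 ± 0.25 (0.000765) and Cd80 fell by 0.53 ± 0.20 (0.0172). Pvr (0.85 ± 0.19, 9.44e-05) and Cd47 (0.56 ± 0.16, 0.00148) were called higher in macrophages under TMM scaling, but with factors from well-expressed genes they were -0.24 and -0.52, and with library totals alone 0.09 and -0.20. The share of all calls that were higher in macrophages was 39.9%, and 28.6% with DESeq2's size factors and 9.02% with factors from well-expressed genes. Sirpa, Havcr2, Cd86 and Lgals9 stayed above 0 and Cd274, Pdcd1lg2 and Cd80 below 0 under the 4 other scalings, although Lgals9 was 0.18 and not called with factors from well-expressed genes (edgeR adjusted p = 0.151). The Cd80 call was lost without replicate 2 of the AT3 neutrophils (edgeR adjusted p = 0.0828). Scaling does not take away the receptor background, which was higher in neutrophils. As a multiple of that background per kilobase, the median was higher in macrophages for all 9 members. It was 98.5 against 69.9 in neutrophils for Cd274, 18.1 against 14.1 for Pdcd1lg2 and 22.5 against 16.2 for Cd80. The part of the background in these differences was not tested.

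The size of the difference depended on the tumour for 5 of the 9 members, where it did for 27.5% of all genes (edgeR quasi-likelihood test of unequal differences). Pdcd1lg2 was lower in macrophages of AT3 tumours (log2 difference -2.04 ± 0.52, edgeR adjusted p = 0.00137) and of T11 tumours (-1.99 ± 0.54, 0.00165), while in 2208L tumours it was -0.92 (0.25) and in E0771 tumours 1.13 (0.07). As a multiple of the receptor background, Pdcd1lg2 was not lower in those macrophages. It averaged 15.7 in AT3 macrophages and 13.2 in AT3 neutrophils, and 9.59 and 8.32 in T11. The part of the background was not tested. Cd274 was lower in macrophages of 2208L tumours (-1.65 ± 0.38, edgeR adjusted p = 0.00299) and of AT3 tumours (-1.44 ± 0.39, 0.00225), and was -0.41 in T11 (0.346) and 0.49 in E0771 (0.394). The T11 value was called at -1.07 with DESeq2's size factors (edgeR adjusted p = 0.0106), at -2.36 with factors from well-expressed genes and at -1.71 with library totals alone. The E0771 value turned to -0.39 with factors from well-expressed genes and to -0.09 with library totals alone, and the AT3 call was lost without replicate 2 of the AT3 neutrophils (-0.53, edgeR adjusted p = 0.197).

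Cd86 was higher in macrophages of AT3, E0771 and 2208L tumours, by 2.39 ± 0.34, 2.22 ± 0.35 and 1.63 ± 0.32 on the log2 scale, while in T11 tumours it was 0.42 (edgeR adjusted p = 0.298) and turned to -0.25 with DESeq2's size factors. There Cd86 was called lower in macrophages with library totals alone (-0.89, edgeR adjusted p = 0.0115) and with factors from well-expressed genes (-1.55, 4.4e-05). Sirpa rose by 3.72 ± 0.39 in T11, 13.2-fold (edgeR adjusted p = 2.12e-11), by 2.80 ± 0.37 in E0771 and by 2.52 ± 0.37 in AT3, and was 1.05 in 2208L (0.0504), where it was called with DESeq2's size factors (edgeR adjusted p = 0.048), with Rn45s left out (0.047), by DESeq2 (0.0158) and with the 2 groups fitted alone (0.00768). Macrophage markers summed to a mean of 1402 CPM in T11 neutrophils, 1730 in E0771, 4271 in AT3 and 7087 in 2208L. Their part in these differences was not tested. Cd47 was called in T11 tumours only, at 1.84 ± 0.32 (edgeR adjusted p = 4.66e-06), and turned to -0.10 there with factors from well-expressed genes. Without the T11 groups the test of unequal differences called 2 members, Cd274 and Pdcd1lg2, and those of Cd86 (edgeR adjusted p = 0.602), Cd47 (0.246) and Sirpa (0.0627) were lost. Havcr2 was called higher in macrophages of every tumour, but in 2208L tumours only at 0.93 ± 0.30 (edgeR adjusted p = 0.0438). That call was lost with DESeq2's size factors (edgeR adjusted p = 0.0521), with factors from well-expressed genes (0.153) and without replicate 1 of the 2208L macrophages (0.33). In T11 tumours Havcr2 moved from 2.12 to 0.17 with factors from well-expressed genes (edgeR adjusted p = 0.573). Per tumour, 5 members were called in T11 tumours (65.8% of all genes), 3 in 2208L (8.24%), 7 in AT3 (49.9%) and 5 in E0771 (18.2%). Of all calls, 44.7, 62.2, 42.5 and 72.7% were higher in macrophages of T11, 2208L, AT3 and E0771 tumours, and 7.87, 29.8, 7.52 and 12.4% with factors from well-expressed genes.

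**Figure D5:**
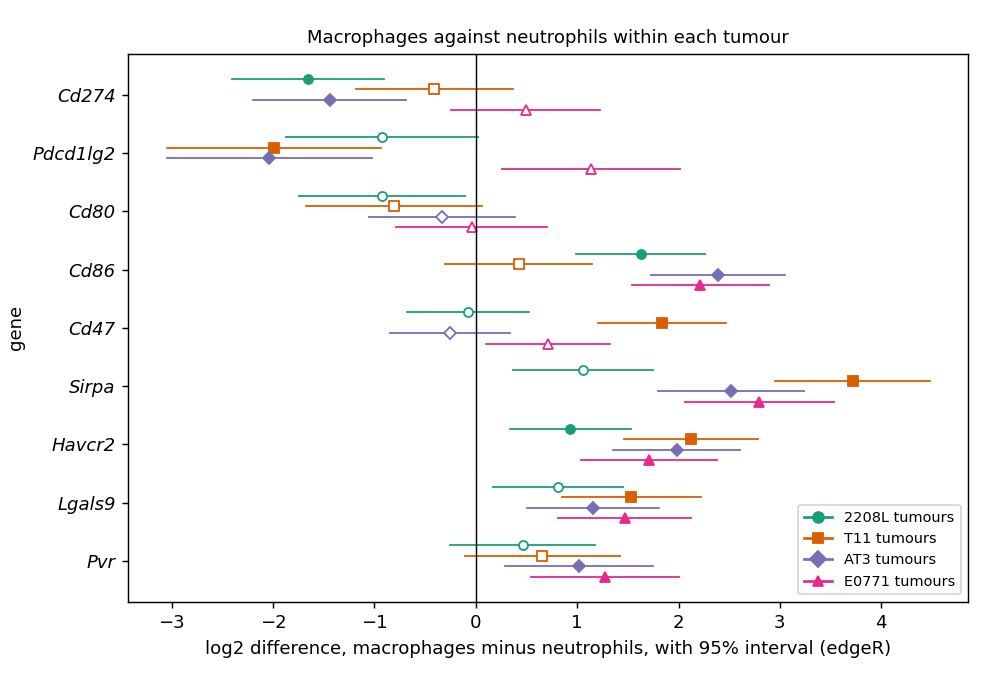
Log2 difference of macrophages minus neutrophils for each of the 9 genes in each of the 4 tumours, with 95% intervals (normal, from the SE of edgeR's fit). Filled points have an adjusted p below 0.05. Sirpa, Havcr2, Cd86, Lgals9 and Pvr lie above 0 in every tumour, though not all of these points are filled. Cd274 ranges from -1.65 in 2208L tumours to 0.49 in E0771 tumours.

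The sorted cells were also set against the cultured line of the same name, a comparison in which culture, sorting and Rn45s content differ along with the cell type and cannot be told apart from it. The 2 comparisons share their line libraries. In macrophages 7 members were higher and 2 lower than in the lines, where 55.5% of all genes changed (15.5% higher and 40.0% lower). Sirpa was 106-fold higher (log2 difference 6.73 ± 0.19, edgeR adjusted p = 2.01e-40), Havcr2 20.5-fold, Cd86 17.9-fold, Cd274 15.3-fold, Cd80 10.5-fold and Lgals9 5.21-fold, and Pdcd1lg2 was higher by 0.97 ± 0.25. The median over members was 3.39 and that over all genes tested -0.43. In neutrophils 7 members were higher and 2 lower, where 84.3% of all genes changed (48.7% higher and 35.6% lower), with Cd274 26.2-fold higher (4.71 ± 0.20, edgeR adjusted p = 7.63e-32), Sirpa 18.7-fold, Cd80 15.4-fold, Havcr2 6.48-fold and Cd86 5.70-fold. There the median over members was 2.51 and that over all genes 0.57. Cd47 fell by 0.81 ± 0.13 in macrophages and fell by 1.34 ± 0.13 in neutrophils, but with factors from well-expressed genes the macrophage value was -0.10 and not called (edgeR adjusted p = 0.412) and the neutrophil value turned to 0.22. With library totals alone the macrophage value was -0.21, not called (edgeR adjusted p = 0.076). Pvr fell by 0.38 ± 0.15 in macrophages (edgeR adjusted p = 0.027) and fell by 1.22 ± 0.16 in neutrophils, turning to 0.32 and 0.35 under the same factors. With these factors 59.6% of all calls were higher in macrophages than in lines, against 27.9% before, and 83.4% in neutrophils, against 57.8% before.

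Other genes of these pathways were counted from 4 lists, to be read against the share of all genes called: 31.9% in 2208L against T11 neutrophils, 4.19% in AT3 against E0771 neutrophils, 15.7% in 2208L against T11 macrophages, 18.4% in AT3 against E0771 macrophages, 45.7% in AT3 against E0771 lines and 76.0% in macrophages against neutrophils. Of 22 tested regulators of Cd274, the interferon receptor and JAK-STAT genes among them, 14 rose and none fell in 2208L against T11 neutrophils, led by Ifngr2 (1.96), Rela (1.90), Stat3 (1.78) and Jak2 (1.67), with a median of 1.27, but with TMM factors from well-expressed genes 6 rose and 4 fell, with a median of 0.35. In AT3 against E0771 neutrophils none of them rose and 1 fell, Cmtm4 (-1.14), which encodes a protein that stabilises PD-L1. In macrophages 2208L against T11 gave 5 higher and 4 lower of 23, with Ciita, the activator of MHC class II genes, at 2.04, and AT3 against E0771 gave 6 higher and 3 lower, with the interferon-induced Cxcl10 at -1.68 and Stat2 at -1.59, but 1 higher and 8 lower with factors from well-expressed genes. Among the lines, AT3 against E0771 had 3 regulators higher and 12 lower of 24, with Irf9 at -2.36, and 6 higher and 9 lower with factors from well-expressed genes.

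Of the other checkpoint and costimulatory ligands, 11 rose and 1 fell of 27 in 2208L against T11 neutrophils, led by Icam1 (2.76), the ligand of LFA-1, and Cd200 (2.68), with a median of 0.36, but with factors from well-expressed genes 6 rose and 11 fell, with a median of -0.53. In 2208L against T11 macrophages, where 7.77% of all genes rose, 7 of 25 rose, among them Icosl (1.79), the ligand of ICOS, and Cd40 (1.64). In AT3 against E0771 macrophages 5 rose and 4 fell of 25, Vsig4 at 5.19 and the OX40 ligand gene Tnfsf4 at -3.34 being the furthest, and 2 rose and 7 fell with factors from well-expressed genes. Receptors of these ligands that lymphocytes carry moved in the macrophage libraries too: 6 of 16 rose in 2208L against T11, with Pdcd1 at 2.96, and 7 of 16 fell in AT3 against E0771, with Pdcd1 at -4.09 and Icos at -3.74. These directions held with factors from well-expressed genes, where 6 rose and 13 fell. T and NK cell markers moved with them, at 145 to 301 CPM in 2208L macrophages and 32.9 to 39.9 CPM in T11 macrophages, beside the AT3 and E0771 sums given above, and their part was not tested.

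Genes that act with the CD47 pair in holding back or driving engulfment were 12 higher and none lower of 19 in 2208L against T11 neutrophils, with Calr (2.61), an eat-me signal, and Ptpn6 (2.38), the phosphatase that SIRPα recruits, in front, and 9 higher and 3 lower with factors from well-expressed genes. Between macrophages and neutrophils, where 30.3% of all genes were higher and 45.7% lower, 15 of 19 were higher and 3 lower in macrophages, with Lrp1 (2.64), the receptor of calreticulin, and Calr (2.50) in front, but 5 were higher and 8 lower with factors from well-expressed genes. The regulators of Cd274 were 16 higher and 1 lower of 23 in the same comparison, with a median of 0.89, and 4 higher and 11 lower with factors from well-expressed genes. Cd274 itself was lower in macrophages under both.

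Likeness of pattern was measured as Pearson's r of log2(CPM + 1) over the 16 group means, among 15464 genes, and is given as a description, since the groups share cell type, depth and background. Cd274 was most like Siglece (0.987), Themis2 (0.983) and Ptafr (0.977). Cd86 was most like Lyl1 (0.991), Cd83 and Itga9 (0.988 each), and Sirpa most like Rasgef1b (0.984). Havcr2 was most like Rgs2 (0.975) and Cd80 most like Atp8b4 (0.984). Cd47 had no close match, the nearest being Zbtb18 (0.756), nor did Pvr, the nearest being Hspb1 (0.787). Lgals9 was most like Ifi35 (0.907), an interferon-induced gene, and Pdcd1lg2 most like Vsig10l (0.973). Among the members themselves the highest values were those of Cd80 with Cd274 (0.95), Havcr2 with Sirpa (0.942) and Sirpa with Cd86 (0.934), whereas Cd47 and Pvr lay between -0.341 and 0.169 with the others.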

How the data were processed

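The authors deposited 1 table of raw read counts per gene for 48 libraries, 24 of cultured lines, 12 of sorted macrophages and 12 of sorted neutrophils. Per the submitters' processing notes, bcl2fastq 2.17 and STAR 2.4.2a were used with the mm10 build; the counting program and its strand setting are not given in the sources used here. Counts outside Rn45s ranged from 470712 to 5749088 per library, and levels were computed as CPM, from the counts outside Rn45s. Low totals widen the counting error of members with few reads, such as Pdcd1lg2.

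Differences were tested on the deposited counts with edgeR 4.0.16 (quasi-likelihood test, TMM factors, filterByExpr with a minimum count of 10 and a total of 15, group as the only term, R 4.3.3), and p-values were adjusted by Benjamini-Hochberg over all genes tested, with a threshold of 0.05. All groups of a cell type entered 1 fit, all 24 sorted libraries another, and the 36 libraries of the 4 named tumours and their lines one more. The steps were tested on simulated data. Alternatives were DESeq2 1.42.0, its size factors (RLE), TMM factors from well-expressed genes, no filter, Rn45s left out, a replicate block, leaving out each library, and, added after seeing the data, library totals alone, leaving out the T11 groups, and the list counts under each scaling. Same-numbered macrophage and neutrophil libraries of a tumour correlated at -0.103 to 0.218, with 3 of 12 over 0.1, so numbers were not treated as pairs. No 2 libraries were identical.

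The members and the lists were chosen with earlier results of these data known. The text names the 9 members in every group, up to 4 called genes per list and comparison with the largest log2 difference, and for likeness the genes with the highest Pearson r among those with a mean CPM of 5 or more. Gene positions and exon lengths came from GENCODE M21 (mm10), promoter windows from RefSeq (GRCm38.p6).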

Additional observations from a re-analysis of the deposited data

Results flagged for a closer look

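For 5 members the difference between macrophages and neutrophils was unequal among the 4 tumours by edgeR's quasi-likelihood test, adjusted over all genes. The adjusted p was 0.00491 for Cd274, 0.000607 for Pdcd1lg2, 0.0082 for Cd86, 0.0009 for Cd47 and 0.00062 for Sirpa, and 27.5% of all genes passed the same test. Cd274 was lower in macrophages of 2208L tumours (log2 difference -1.65) and AT3 tumours (-1.44), and was 0.49 in E0771 tumours, where it was not called. Pdcd1lg2 was lower in macrophages of T11 (-1.99) and AT3 tumours (-2.04) and was 1.13, not called, in E0771 tumours. Cd86 was higher in macrophages of AT3 (2.39), E0771 (2.22) and 2208L tumours (1.63) and was 0.42, not called, in T11 tumours, Cd47 was called in T11 tumours only (1.84), and Sirpa was highest over neutrophils in T11 tumours (3.72). Without the T11 groups, whose neutrophils had the highest receptor background, the values for Cd86 (0.602), Cd47 (0.246) and Sirpa (0.0627) were no longer below 0.05, and those for Cd274 and Pdcd1lg2 were. This background was also higher in AT3 neutrophils (1.18 to 2.35 CPM per kilobase) than in AT3 macrophages (0.162 to 0.260). As a multiple of it, Pdcd1lg2 averaged 15.7 in AT3 macrophages and 13.2 in AT3 neutrophils. The same values were 9.59 and 8.32 in T11, 13.4 and 16.5 in 2208L, and 61.1 and 14.9 in E0771 tumours. The part of the background, and of macrophage markers in the neutrophils, was not tested.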

How the results depend on the processing

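Of 915 values of single genes under alternatives that left out neither single libraries in turn nor the T11 groups, 853 kept direction and call, 35 lost the call, 8 gained it and 19 changed direction; of 2607 with a library or the T11 groups left out, 2558 kept both and 1 changed direction, Pvr without the T11 groups. Directions changed in comparisons of sorted cells, mostly under other scalings. Under TMM factors from well-expressed genes, macrophages minus neutrophils gave -0.52 for Cd47 and -0.24 for Pvr over all tumours, -1.55 for Cd86, -0.10 for Cd47 and -0.40 for Lgals9 in T11, -0.39 for Cd274 in E0771 and -0.12 for Pvr in AT3. Under library totals alone it gave -0.20 for Cd47 over all tumours, -0.89 for Cd86 in T11 and -0.0914 for Cd274 in E0771, and Cd86 in T11 was -0.25 by DESeq2 and -0.25 with its size factors. Macrophages minus lines gave 0.0553 (DESeq2), 0.0594 (its size factors), 0.32 (well-expressed genes), 0.21 (library totals) and 0.15 (without the T11 groups) for Pvr, and neutrophils minus lines gave 0.22 for Cd47 and 0.35 for Pvr (well-expressed genes) and 0.11 for Pvr (library totals). The cause was not tested.

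Counts of members called were 5 and 6 in 4T1 against 67NR (well-expressed genes, library totals), 5 in AT3 against E0771 lines (well-expressed genes), 5 and 5 in AT3 against E0771 macrophages (the same 2 settings), and 5 in macrophages against neutrophils of 2208L fitted alone. Calls over all genes moved as well. With factors from well-expressed genes 5577 were higher and 3650 lower in 4T1 against 67NR, and 4323 and 4452 before. In AT3 against E0771 lines they were 5903 and 3263, and 3736 and 4648 before. For the macrophages of that pair they were 420 and 2477, and 1425 and 1278 before. Leaving out each library gave 0 to 3 members in AT3 against E0771 neutrophils, 4 to 5, 3 to 4, 3 to 4 and 2 to 4 in the line pairs of 2208L, 4T1, PyMT-N and AT3, 3 to 5 and 3 to 4 in the macrophages of 2208L and AT3, and 5 to 6, 2 to 4, 5 to 7 and 4 to 6 in macrophages against neutrophils of T11, 2208L, AT3 and E0771. Over all genes it gave 196 to 2634 calls in AT3 against E0771 neutrophils, against 761 with every library. In macrophages against neutrophils of 2208L it gave as few as 740, against 1677. Without the T11 groups 2 members differed among neutrophils and 2 differed by tumour between the cell types. With the replicate block 9 members were called in macrophages against neutrophils and no call of a member changed. Low counts limit Pdcd1lg2 in macrophages and Cd80 and Cd86 in lines.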
